A study of Macaca mulatta with 24 samples.

Results

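The genes described here are 39 genes of B lymphocytes and plasma cells, chosen by name as a list of lineage genes. Where a gene had several probes, the brightest on average across the 24 arrays stood for it. Of the 39 genes, 31 were found on the array by symbol and 30 were tested, among 38234 probes tested in all. They comprise 20 B cell genes, 8 plasma cell genes and 2 ligands. CD22, FCRL3, FCRL5, BLK, PAX5, EBF1, SPIB and POU2AF1 were not matched to a symbol here, and the FCRL1 probe did not rise well above background in any sample. Of the 30 genes, 23 were well above background on all 24 arrays.

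The colon of young adult male rhesus macaques was profiled, 1 animal per array, on single-colour Agilent rhesus arrays. The 4 sham-irradiated controls received 0 Gy, carried the label day 4 and served as baseline for every day. The irradiated animals received a single total-body dose (TBI) of 6.7 or 7.4 Gy of cobalt-60 gamma rays, and colon was taken after 4 or 7 days (n = 4 per dose and day) or after 12 days (n = 2 per dose). Whole gut wall was extracted, so every value mixes epithelium, muscle and the immune cells of the mucosa, and in such bulk tissue fewer cells of a type and less RNA per cell cannot be told apart. Values are log2 signals relative to the 75th percentile of the same array, differences are log2 changes with their standard errors (SE), and p-values are from limma with Benjamini-Hochberg adjustment over all probes. A gene was called when the adjusted p was under 0.05 and the change was at least 2-fold.

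B cells recognise antigen through a surface immunoglobulin that signals through the CD79A and CD79B chains, and in the gut they gather in lymphoid follicles of the mucosa. Activated B cells that switch on PRDM1 and IRF4 become plasma cells, which lose most B cell surface proteins, enlarge their secretory machinery and release antibody, in the gut mainly immunoglobulin A joined by the IGJ chain. Lymphocytes that divide or are naive are known to be radiosensitive, whereas resting plasma cells are known to resist radiation better.

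Between 66.8% and 85.0% of probes were well above background. Replicate 1 of 6.7 Gy on day 12, 1 of 2 animals of that group, stood apart with 712 outlier spots against 24 to 153 on the other arrays and with the lowest mean of the spike-in controls, 8.38 on the log2 scale. Of the marker lists, the 8 tested epithelial genes summed to between 773.2 and 966.6 times the 75th percentile in the controls, the 4 most plasma-restricted genes to between 16.0 and 47.2 times, and the 11 most B-restricted genes to between 3.24 and 7.37 times. Levels of different probes cannot be set against each other, so these sums describe each list over the arrays only.

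On day 4 most B cell and most plasma cell genes had a lower mean than in the controls. The median log2 change of the 20 B cell genes was -0.48 after 6.7 Gy and -0.63 after 7.4 Gy, with 18 of 20 genes lower at each dose, against a median over all probes of -0.07 and -0.08, with 56.6% and 55.9% of probes lower. The median of the 8 plasma cell genes was -0.24 and -0.38, with 6 of 8 lower at each dose. Of all 30 genes, 1 was called after 6.7 Gy and 2 after 7.4 Gy, all lower, beside 3.6% and 7.04% of all probes called in either direction (1.83% higher and 1.77% lower after 6.7 Gy, 3.37% higher and 3.66% lower after 7.4 Gy). Counts of 1 and 2 of 30 genes are near that background.

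On day 7 the medians of both groups of genes were lower still. The B cell median was -0.85 after 6.7 Gy and -0.89 after 7.4 Gy, with 18 and 17 of 20 genes lower, and the plasma cell median was -0.74 and -0.73, with 7 and 8 of 8 lower. Over all probes the median was -0.02 and 0.01, and 53.5% and 48.9% of probes were lower. No gene of the list was called at either dose, beside 0.319% (0.0994% higher, 0.22% lower) and 0.39% (0.131% higher, 0.259% lower) of all probes and 0 genes by the methods' t-test. In limma 16 of 30 had an unadjusted p under 0.05 at each dose. Of these, 9 and 10 also changed 2-fold, beside 883 and 1023 of 38234 probes. The share of all probes under that p alone was not taken, here or for the counts below, so those counts have no such background. The 4 controls were widely spread, and without control replicate 1 the count rose to 2 after 6.7 Gy (CD37 and CD79A) and 4 after 7.4 Gy (CD37, CD79A, BTK and VPREB3).

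On day 12 the medians had moved back towards the controls. The B cell median was -0.26 and -0.30 after 6.7 and 7.4 Gy, and the plasma cell median was -0.16 and 0.32. No gene was called, beside 0.0183% (0.00785% higher, 0.0105% lower) and 0.0262% (0.0105% higher, 0.0157% lower) of all probes and 0 genes by the methods' t-test. In limma 1 and 6 of 30 had an unadjusted p under 0.05. Of these, 1 and 2 also changed 2-fold, beside 719 and 741 of all probes tested. Each of these groups held 2 animals, and the direction of the B cell median depended on the scaling: it was 0.090 after 6.7 Gy with spike-in scaling and 0.18 after 7.4 Gy with another background correction (normexp). The plasma cell median after 6.7 Gy was 0.19 with spike-in scaling.

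Within single arrays the 2 lineages can be set side by side. Taking in each array the median difference from the control mean, the B cell genes were at -0.54, -0.14, 0.04 and 0.63 in the 4 controls, between -0.81 and -0.18 after 6.7 Gy and between -0.96 and -0.26 after 7.4 Gy on day 4, and between -1.06 and -0.51 on day 7 over both doses. The plasma cell genes were at -0.60, 0.32, -0.03 and -0.02 in the controls, between -0.54 and 0.80 after 6.7 Gy and between -1.08 and 0.38 after 7.4 Gy on day 4, and between -1.40 and 0.16 on day 7. The B cell values of day 7 lay almost wholly below the controls, the exceptions being control replicate 1 at -0.54 and the highest day 7 array at -0.51. The plasma cell values of day 4 straddled the controls, with 6.7 Gy replicate 4 and 7.4 Gy replicate 1 high.

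**Figure D1:**
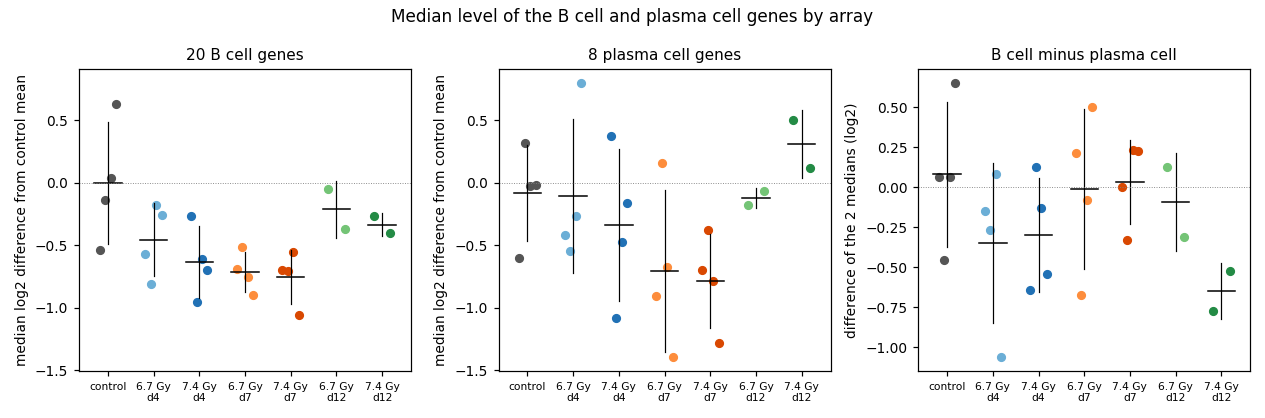
Points are single arrays, horizontal bars are group means and vertical bars are 1 SD; the vertical axes give the median log2 difference from the control mean over the 20 B cell genes (left) and the 8 plasma cell genes (middle), and the difference of these medians (right), against dose and day (d). The B cell means are -0.00 in the controls and -0.71 and -0.75 on day 7, and the plasma cell means are -0.70 and -0.79 on day 7 and 0.31 at 7.4 Gy on day 12.

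The B cell median minus the plasma cell median of the same array was 0.08 ± 0.45 (SD, n = 4) in the controls, -0.35 ± 0.50 and -0.30 ± 0.36 on day 4 after 6.7 and 7.4 Gy (n = 4 each), and -0.01 ± 0.50 and 0.03 ± 0.26 on day 7 (n = 4 each). On day 12 it was -0.09 ± 0.31 after 6.7 Gy and -0.65 ± 0.18 after 7.4 Gy (n = 2 each). Each group mean lay within the control SD of the control mean except at 7.4 Gy on day 12, where both animals, at -0.77 and -0.52, lay below the lowest control at -0.46, as did single arrays of the other days. Over the 11 most B-restricted and the 4 most plasma-restricted genes the same score was -0.05 ± 0.65 in the controls. In the order of 6.7 and 7.4 Gy it was -0.44 ± 0.39 and -0.47 ± 0.38 on day 4 and -0.18 ± 0.53 and -0.34 ± 0.45 on day 7. On day 12 it was 0.13 ± 0.32 and -0.85 ± 0.10. No test was made of either score.

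The arrays were scanned on 2 days, and controls 1 and 2 were scanned on the first. Within the first scan day the B cell median against its 2 controls was 0.27 after 6.7 Gy on day 4 and -0.28 and -0.44 after 6.7 and 7.4 Gy on day 7 (2 arrays per group). Within the second it was -0.92 and -0.84 on day 4 and -1.22 and -1.07 on day 7. All day 12 arrays were scanned on the second day, and there the B cell median was -0.49 and -0.58. These lie further from 0 than the -0.26 and -0.30 against all controls, so the return by day 12 is smaller by this measure. The lower B cell level on day 7 was therefore present on both scan days, and that of 6.7 Gy on day 4 on the second only. The plasma cell median on day 7 was -0.18 and -0.80 on the first scan day and -1.18 and -0.51 on the second. On day 12 it was -0.10 and 0.33 on the second. Controls lay at array position 1 of their slides and all arrays of 7.4 Gy on day 4 at position 2. Day 7 arrays lay at positions 3 and 4 and day 12 arrays at position 4, so position and these 2 days cannot be told apart.

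**Figure D2:**
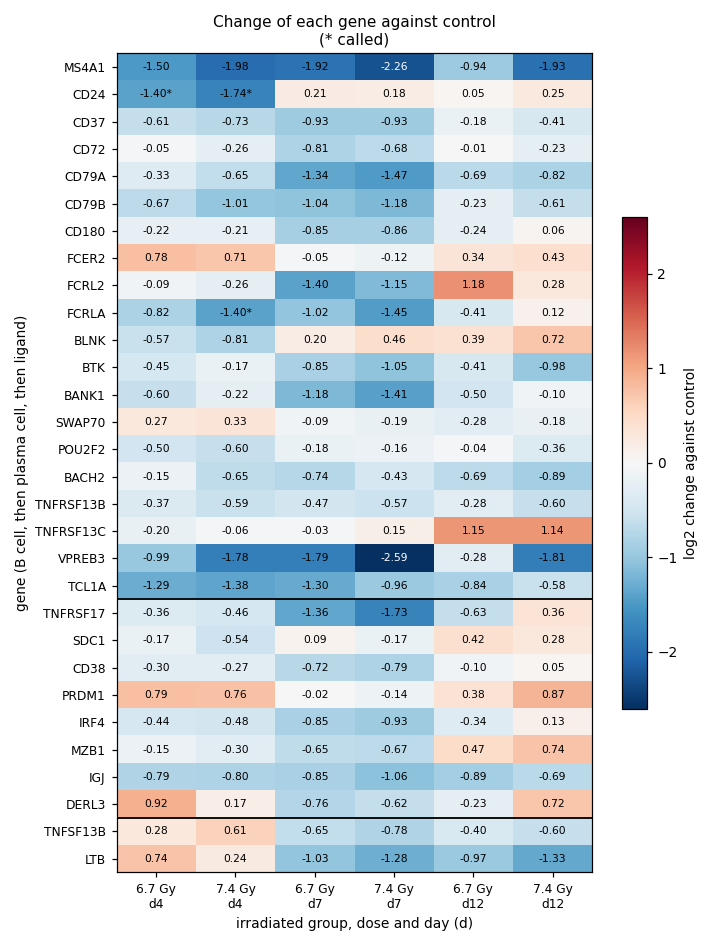
Each cell is the log2 change of 1 gene (rows) in an irradiated group (columns, dose and day) against the 4 controls; blue is lower, red is higher, lines separate B cell genes, plasma cell genes and ligands, and an asterisk marks a call. Only CD24 on day 4 at both doses and FCRLA on day 4 after 7.4 Gy carry an asterisk, and most cells of day 7 are blue.

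Among the surface proteins of B cells, CD24 carried the largest called change. CD24 is a small glycolipid-anchored protein of B cells that intestinal epithelium also makes. Its log2 signal was 4.48, 4.10, 4.56 and 5.27 in the controls, 2.88, 2.56, 3.27 and 4.12 on day 4 after 6.7 Gy, and 2.78, 1.51, 3.75 and 3.43 on day 4 after 7.4 Gy. On day 7 it was 4.91, 4.59, 5.08 and 4.68 after 6.7 Gy and 4.87, 5.09, 5.15 and 4.04 after 7.4 Gy, and on day 12 it was 4.32 and 4.99 after 6.7 Gy and 5.05 and 4.67 after 7.4 Gy. Every array of 7.4 Gy on day 4 lay below every control (23.5% of all probes did not overlap), 1 of 4 arrays of 6.7 Gy overlapped them, and days 7 and 12 lay at control level. CD24 fell by 1.40 (SE 0.41, adjusted p = 0.0356) after 6.7 Gy and by 1.74 (SE 0.41, adjusted p = 0.00583) after 7.4 Gy on day 4. Against controls of the same scan day, CD24 after 6.7 Gy had -0.60 on the first and -2.20 on the second. After 7.4 Gy, scanned on the second only, it had -2.05.

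The second CD24 probe, well above background on 24 arrays, changed less on day 4, by -0.23 (adjusted p = 0.385) and -0.54 (adjusted p = 0.022). It had -0.05 and -0.04 on day 7 and -0.05 and -0.09 on day 12, so it also moved less between days. The mean of both probes was -0.81 after 6.7 Gy, below 2-fold, and the call at 6.7 Gy was also lost without any one of control replicates 1, 3 and 4 or 6.7 Gy day 4 replicates 1, 2 and 3 (-1.44 to -1.17). The epithelial list moved with it: 3 and 4 of its 8 tested genes were called lower on day 4, its median was -0.84 and -1.10, and its summed level ranged from 366.7 to 593.6 after 6.7 Gy and from 367.4 to 463.3 after 7.4 Gy. Its part in the fall of CD24 was not tested.

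The antigen receptor chain CD79A was lower on day 7 by a change that did not pass the adjustment. CD79A measured -4.12, -3.06, -2.73 and -1.85 in the controls, -3.37, -3.85, -2.74 and -3.11 on day 4 after 6.7 Gy, and -2.77, -4.17, -3.99 and -3.42 on day 4 after 7.4 Gy. The day 7 values were -4.55, -3.65, -4.57 and -4.36 after 6.7 Gy and -4.48, -4.18, -3.76 and -5.22 after 7.4 Gy, and on day 12 it was -3.66 and -3.61 after 6.7 Gy and -3.44 and -4.08 after 7.4 Gy. The day 7 arrays lay below controls 2 to 4, and control replicate 1 overlapped them. The change on day 7 was -1.34 (SE 0.41, adjusted p = 0.2) and -1.47 (SE 0.41, adjusted p = 0.128). Its partner chain CD79B had -1.04 and -1.18 on day 7 (adjusted p = 0.33 and 0.202). The other CD79B probe, well above background on 22 arrays, had -1.78 and -2.25 (adjusted p = 0.186 and 0.0633).

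MS4A1, which encodes CD20, was close to the detection limit. It was well above background on 3 of 24 arrays, namely control replicates 3 and 4 at -5.30 and -2.52 and 1 array of 6.7 Gy on day 12. Controls 1 and 2 were at -7.43 and -7.67 and not well above background. On day 4 the log2 signal was -7.47, -7.49, -5.84 and -8.10 after 6.7 Gy and -6.86, -8.86, -7.78 and -7.36 after 7.4 Gy. On day 7 it was -8.28, -7.67, -6.44 and -8.21 after 6.7 Gy and -8.19, -8.36 and -8.01 in replicates 2 to 4 after 7.4 Gy, with replicate 1 the highest of that group, and on day 12 it was -6.53 and -6.80 after 6.7 Gy and -6.90 and -8.42 after 7.4 Gy. Control replicate 4 stood far above all other arrays. No array of the irradiated groups on days 4 and 7 was well above background, and neither were controls 1 and 2, so no fold is given (adjusted p between 0.0934 and 0.457 in limma). Against the controls of the same scan day, MS4A1 had 0.58 on day 4 after 6.7 Gy and -0.42 and -0.63 on day 7 on the first scan day, and -3.57, -3.42 and -3.89 for the same groups on the second, which holds control replicate 4.

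The other surface genes were lower on day 7 without a call. CD37, a tetraspanin of mature B cells and other leukocytes, changed by -0.93 (SE 0.23) at each dose on day 7 (adjusted p = 0.0934 and 0.0892), and its arrays of 7.4 Gy did not overlap the controls. CD72, an inhibitory receptor, had -0.81 and -0.68 with no overlap of either dose with the controls (7.19% and 5.77% of all probes did not overlap), and CD180, a toll-like receptor relative, had -0.85 and -0.86. FCER2, the low-affinity IgE receptor, differed from the rest, at 0.78 and 0.71 on day 4 (adjusted p = 0.355 and 0.347) and at -0.05 and -0.12 on day 7. It was well above background on 3 of 4 controls. Against controls of the same scan day, FCER2 on day 4 had 1.35 on the first and 0.21 on the second after 6.7 Gy. After 7.4 Gy, scanned on the second only, it had -0.08.

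Among the Fc receptor-like genes, FCRLA, an intracellular protein of B cells known best from germinal centres, was called. FCRLA measured 0.69, -1.28, -0.64 and -0.22 in the controls, -0.63, -1.02, -1.63 and -1.44 on day 4 after 6.7 Gy, and -1.79, -2.00, -1.23 and -2.04 on day 4 after 7.4 Gy. The day 7 values were -1.07, -1.77, -1.24 and -1.44 after 6.7 Gy and -1.07, -2.71, -1.76 and -1.71 after 7.4 Gy, and on day 12 it was 0.16 and -1.72 after 6.7 Gy and 0.23 and -0.72 after 7.4 Gy. The arrays of 7.4 Gy on day 4 overlapped the controls only at control replicate 2. FCRLA fell by 1.40 (SE 0.43, adjusted p = 0.0269) on day 4 after 7.4 Gy. On day 7 the change of the same size after 7.4 Gy, -1.45 (SE 0.43), had an adjusted p of 0.152.

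The call of FCRLA was lost without any one of control replicates 1 and 4 or 7.4 Gy day 4 replicates 1, 2 and 4 (-1.39 to -1.05). With array position as a block it was -0.69 (adjusted p = 0.627). Its 2 other probes had -0.86 and -1.02 on day 4 after 7.4 Gy (adjusted p = 0.203 and 0.132).

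The genes of antigen receptor signalling went both ways. BTK, the kinase below the receptor, had -0.85 and -1.05 on day 7 (SE 0.26, adjusted p = 0.206 and 0.0847), and BANK1, a scaffold protein of B cells, had -1.18 and -1.41 (SE 0.52, adjusted p = 0.472 and 0.281). The other BANK1 probe, well above background on 11 arrays, had -2.07 and -2.08 on day 7 (adjusted p = 0.0982 and 0.0894). BLNK, the adaptor that links the receptor to phospholipase C, was not lower on day 7. Its log2 signal was 0.60, 0.63, 0.56 and -0.46 in the controls, -0.36, -1.29, 0.33 and 0.36 on day 4 after 6.7 Gy and 0.01, -1.18, -0.59 and -0.17 after 7.4 Gy. On day 7 it was 0.59, 0.68, 0.53 and 0.32 after 6.7 Gy and 0.78, 1.21, 1.05 and 0.11 after 7.4 Gy. All arrays of day 4, at both doses, lay below controls 1 to 3, while control replicate 4 lay among them. Against control BLNK changed by -0.57 and -0.81 on day 4 and 0.20 and 0.46 on day 7, none called.

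Transcription factors were represented by POU2F2 and BACH2. POU2F2, also called Oct-2, drives B cell genes including immunoglobulin, and it was 2.02, 1.92, 1.85 and 2.03 in the controls, 1.56, 1.22, 1.51 and 1.52 on day 4 after 6.7 Gy, and 1.22, 1.47, 1.47 and 1.25 after 7.4 Gy. No day 4 array overlapped the controls. The change was -0.50 (SE 0.12, adjusted p = 0.0144) and -0.60 (SE 0.12, adjusted p = 0.00197), past the adjusted threshold but under 2-fold. Groups that do not overlap were seen for 16.0% and 23.5% of all probes in these comparisons. Of 3 other POU2F2 probes, 1, well above background on 12 arrays, was called lower after 7.4 Gy, at -1.34 (adjusted p = 0.0142). On day 7 the probe described had -0.18 and -0.16, whereas that other probe had -1.22 and -1.57 and a further one -1.25 and -1.70, none called. BACH2, a repressor of PRDM1, had -0.15 and -0.65 on day 4 and -0.74 and -0.43 on day 7, with adjusted p between 0.25 and 0.848.

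**Figure D3:**
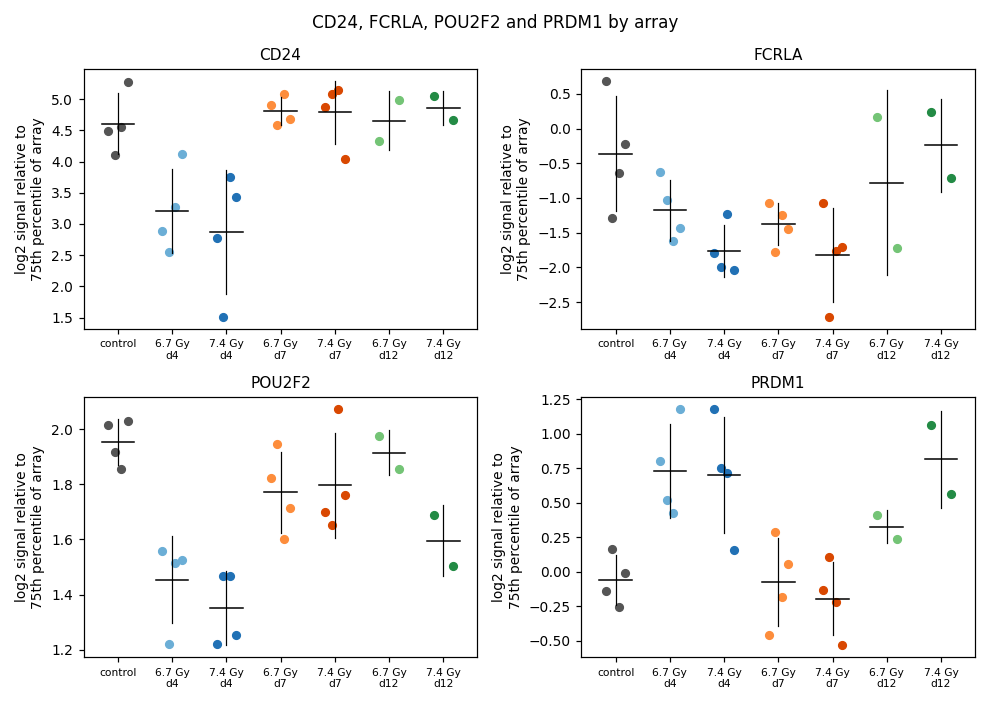
Points are arrays, filled where the probe was well above background and open where it was not, with the group mean (horizontal bar) and 1 SD (vertical bar); the axes give the log2 signal relative to the 75th percentile of the array against dose and day (d). CD24 and the POU2F2 probe shown are lower on day 4 (CD24 means 3.21 and 2.87 against 4.60 in the controls) and near the controls on day 7, FCRLA means on day 7 are -1.38 and -1.82 against -0.36 in the controls, and PRDM1 is higher on day 4 (0.73 and 0.70 against -0.06).

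The receptors for the survival factor BAFF, and the genes of early B cells, followed. TNFRSF13B, also called TACI, had -0.37 (adjusted p = 0.15) and -0.59 (adjusted p = 0.0144, SE 0.16) on day 4 after 6.7 and 7.4 Gy, under 2-fold. Its 2 other probes had -0.39 and -0.17 on day 4 after 7.4 Gy (adjusted p = 0.426 and 0.876). TNFRSF13C, the BAFF receptor, was well above background on 16 of 24 arrays and did not depart from the controls on days 4 and 7, with changes between -0.20 and 0.15. On day 12 it had 1.15 and 1.14 (adjusted p = 0.547 and 0.507), and all 4 arrays of that day lay above all 4 controls (17.7% and 15.6% of all probes did not overlap after 6.7 and 7.4 Gy). VPREB3, an antigen receptor partner of precursor and naive cells, was -6.02, -4.95, -3.76 and -0.80 in the controls and -6.29, -5.98, -6.52 and -7.10 on day 7 after 7.4 Gy, where no array was well above background (adjusted p = 0.138). Control replicate 1 lay within that range, and the difference was -1.33 on the first scan day and -3.85 on the second. TCL1A, a naive B cell kinase coactivator, had between -1.38 and -0.96 on days 4 and 7, none called.

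Among the plasma cell genes, the BAFF and APRIL receptor TNFRSF17 (BCMA), restricted to antibody-secreting cells, was lower on day 7. TNFRSF17 measured -1.98, -1.28, -1.42 and -1.68 in the controls, -2.18, -2.71 and -1.91 in replicates 1 to 3 on day 4 after 6.7 Gy with replicate 4 above all controls, and -0.84, -2.91, -2.37 and -2.09 after 7.4 Gy. On day 7 it was -3.36, -1.78, -2.92 and -3.74 after 6.7 Gy and -2.03, -3.82 and -4.44 in replicates 2 to 4 after 7.4 Gy with replicate 1 between them, and on day 12 it was -1.85 and -2.58 after 6.7 Gy and -1.35 and -1.11 after 7.4 Gy. The arrays of 7.4 Gy on day 7 all lay below the controls (5.77% of all probes did not overlap), whereas the day 4 arrays spread to both sides of them. Against control it changed by -1.36 and -1.73 on day 7 (SE 0.51, adjusted p = 0.35 and 0.149).

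The genes of antibody secretion were not called against control in any group. IGJ, the chain that joins immunoglobulin A and M into polymers, was 3.17, 5.08, 4.83 and 3.62 in the controls. On day 4 it was 3.65, 3.78, 3.43 and 2.68 after 6.7 Gy and 4.19, 2.99, 3.05 and 3.26 after 7.4 Gy, on day 7 it was 3.61, 4.37, 2.37 and 2.93 after 6.7 Gy and 3.44, 3.16, 3.44 and 2.40 after 7.4 Gy, and on day 12 it was 3.39, 3.18, 3.43 and 3.53. No irradiated array reached controls 2 and 3, and controls 1 and 4 lay among the irradiated arrays. The change was between -1.06 and -0.69 in all 6 groups, with adjusted p between 0.204 and 0.872.

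MZB1, an endoplasmic reticulum cochaperone that helps assemble immunoglobulin, was 1.57, 2.68, 2.31 and 2.19 in the controls. On day 4 it was 1.87, 0.77, 2.27 and 3.23 after 6.7 Gy and 2.92, 1.01, 1.70 and 1.90 after 7.4 Gy, on day 7 it was 1.31, 2.49, 1.54 and 0.80 after 6.7 Gy and 1.41, 1.98, 1.36 and 1.30 after 7.4 Gy, and on day 12 it was 2.89 and 2.43 after 6.7 Gy and 3.61 and 2.25 after 7.4 Gy. On day 7 every array but 6.7 Gy replicate 2 lay below controls 2 to 4. The change was -0.65 and -0.67 on day 7 (adjusted p = 0.718 and 0.646) and 0.47 and 0.74 on day 12 (adjusted p = 0.919 and 0.873).

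**Figure D4:**
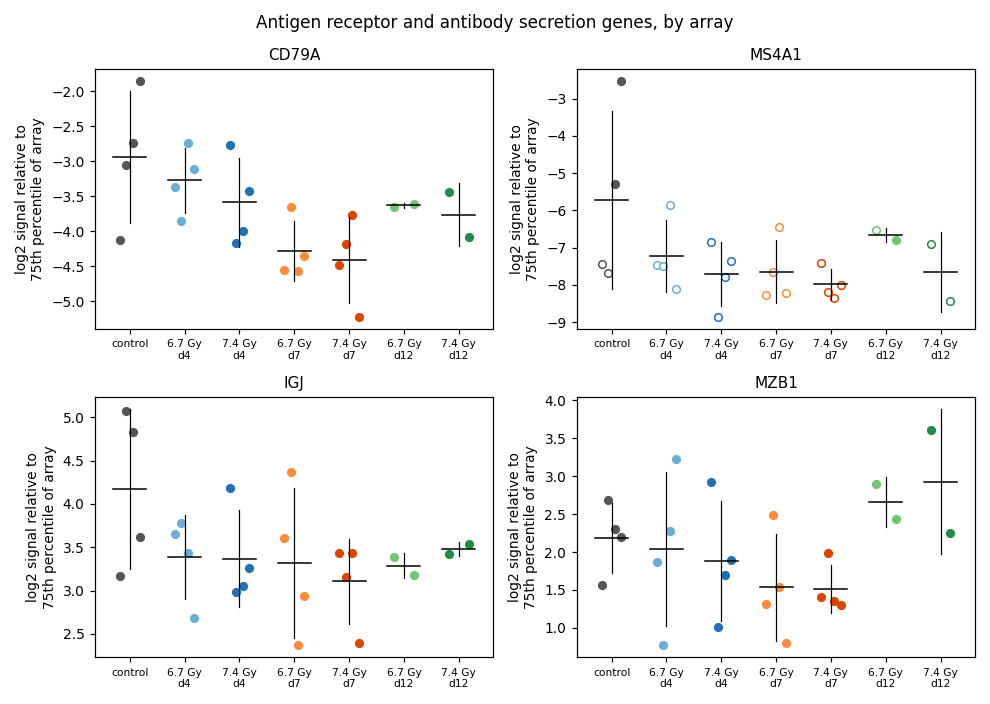
Points are arrays, filled where the probe was well above background and open where it was not, with the group mean and 1 SD; the axes give the log2 signal relative to the 75th percentile of the array against dose and day (d). CD79A means are -2.94 in the controls and -4.28 and -4.41 on day 7, most MS4A1 points are open, IGJ means lie between 3.11 and 3.48 in the irradiated groups against 4.17 in the controls, and MZB1 means are 1.54 and 1.51 on day 7 and 2.66 and 2.93 on day 12.

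SDC1 (CD138), a heparan sulfate proteoglycan of plasma cells and also of epithelium, was lower on day 4 after 7.4 Gy and was not called in any group. It was 0.29, -0.29, -0.03 and -0.07 in the controls, 0.31, -0.51, -0.23 and -0.33 on day 4 after 6.7 Gy, and -0.33, -0.79, -0.49 and -0.62 after 7.4 Gy. The day 7 values were 0.23, 0.10, -0.06 and 0.00 after 6.7 Gy and -0.69, 0.12, 0.02 and -0.22 after 7.4 Gy, and on day 12 it was 0.39, 0.41, 0.37 and 0.15. The arrays of 7.4 Gy on day 4 lay below all controls (23.5% of all probes did not overlap). The change there was -0.54 (SE 0.19, adjusted p = 0.0475), under 2-fold, while the epithelial list had a median of -1.10; its part was not tested.

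Of the regulators of plasma cell fate, PRDM1 passed the adjusted threshold on day 4. PRDM1, the Blimp-1 repressor that T cells and epithelium also make, was -0.14, 0.17, -0.25 and -0.01 in the controls, 0.80, 0.52, 0.43 and 1.18 after 6.7 Gy, and 1.18, 0.75, 0.72 and 0.16 after 7.4 Gy on day 4. All arrays of 6.7 Gy and 3 of 4 of 7.4 Gy lay above the highest control (16.0% of all probes did not overlap after 6.7 Gy). The change was 0.79 (SE 0.22, adjusted p = 0.0276) and 0.76 (SE 0.22, adjusted p = 0.0192), past the adjusted threshold but under 2-fold, and near 0 on day 7 at -0.02 and -0.14. IRF4, its partner in plasma cells, had -0.44 and -0.48 on day 4 (adjusted p = 0.428 and 0.328) and -0.85 and -0.93 on day 7 (adjusted p = 0.391 and 0.274). CD38, an ectoenzyme of plasma cells and activated lymphocytes, had -0.72 and -0.79 on day 7 (adjusted p = 0.735 and 0.643).

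The ligands, which act on lymphoid tissue, were not called against control but fell between days 4 and 7. TNFSF13B encodes BAFF, made mainly by myeloid cells, and LTB encodes lymphotoxin beta, which lymphocytes use to organise lymphoid follicles. In the controls TNFSF13B was 0.15, 0.50, 0.71 and 0.04. It was 0.77, 0.58, 0.91 and 0.27 after 6.7 Gy and 0.92, 0.55, 1.25 and 1.12 after 7.4 Gy on day 4, and -0.40, 0.33, -0.45 and -0.67 after 6.7 Gy and 0.46, -0.18, -0.75 and -1.24 after 7.4 Gy on day 7. Only the highest day 7 arrays reached the lowest day 4 array.

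LTB was 0.47, 1.33, 1.89 and 3.19 in the controls. It was 2.58, 2.70, 3.18 and 1.38 after 6.7 Gy and 1.77, 1.88, 2.05 and 2.12 after 7.4 Gy on day 4, and 0.66, 1.24, 0.66 and 0.19 after 6.7 Gy and 1.06, 0.50, 0.48 and -0.28 after 7.4 Gy on day 7. The day 4 arrays of both doses did not overlap the day 7 arrays (4.14% of all probes did not overlap). On day 12 it was 1.30 and 0.19 after 6.7 Gy and 0.09 and 0.69 after 7.4 Gy, still within the day 7 range save for 1 array.

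The days were also compared directly over both doses, so that the changes themselves use no control array. Between day 4 and day 7, 6 of 30 genes were called, 2 higher and 4 lower, beside 4.44% of all probes (2.37% higher and 2.06% lower). LTB fell by 1.64 (SE 0.32, adjusted p = 0.00124), TNFSF13B fell by 1.16 (SE 0.21, adjusted p = 0.000573), and TNFRSF17 fell by 1.14 (SE 0.36, adjusted p = 0.0251). DERL3, which clears misfolded proteins from the endoplasmic reticulum of secretory cells, fell by 1.23 (SE 0.35, adjusted p = 0.0141). CD24 rose by 1.76 (SE 0.29, adjusted p = 0.000284) and BLNK by 1.02 (SE 0.25, adjusted p = 0.00585). Over the same days the 8 tested epithelial genes had a median of 0.88, with 4 called higher, the 7 common leukocyte genes -0.78, with 2 called lower, and the 7 myeloid genes -0.74, with none called and 5 at an unadjusted p under 0.05. Their part in these changes was not tested.

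DERL3 was 1.93, 2.74, 2.46 and 2.93 in the controls. It was 2.93, 2.61, 3.53 and 4.66 after 6.7 Gy and 4.01, 1.81, 2.22 and 2.67 after 7.4 Gy on day 4, and 1.34, 3.13, 1.73 and 0.80 after 6.7 Gy and 2.33, 2.14, 1.65 and 1.46 after 7.4 Gy on day 7. The groups overlapped: the day 4 means were 3.43 and 2.68 and the day 7 means 1.75 and 1.89, against 2.51 in the controls. Its other 4 probes had the same sign against control on day 7, between -0.90 and -0.40, none called.

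PRDM1 had -0.85 between these days (SE 0.15, adjusted p = 0.000638) and POU2F2 0.38 (SE 0.09, adjusted p = 0.0031), both under 2-fold. Among the B-restricted genes CD79A had -0.92 (SE 0.29, adjusted p = 0.0255), also under 2-fold. BLNK is close to the fold threshold and its call was lost in 10 of 30 alternatives, among them without replicate 2 of any of these groups or 7.4 Gy day 7 replicate 3 (at the lowest 0.85), and that of TNFRSF17 in 8 of 30, among them without any one of 6.7 Gy day 4 replicate 4, 7.4 Gy day 4 replicate 1, 6.7 Gy day 7 replicates 1 and 4 or 7.4 Gy day 7 replicates 3 and 4 (-1.07 to -0.94). The calls of LTB, TNFSF13B, DERL3 and CD24 were kept in all 30 alternatives run, with CD24 at the lowest 1.05. Its second probe moved less, from -0.23 and -0.54 against control on day 4 to -0.05 and -0.04 on day 7. Day 4 arrays lay at positions 1 and 2 and day 7 arrays at positions 3 and 4, so position and day cannot be told apart.

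**Figure D5:**
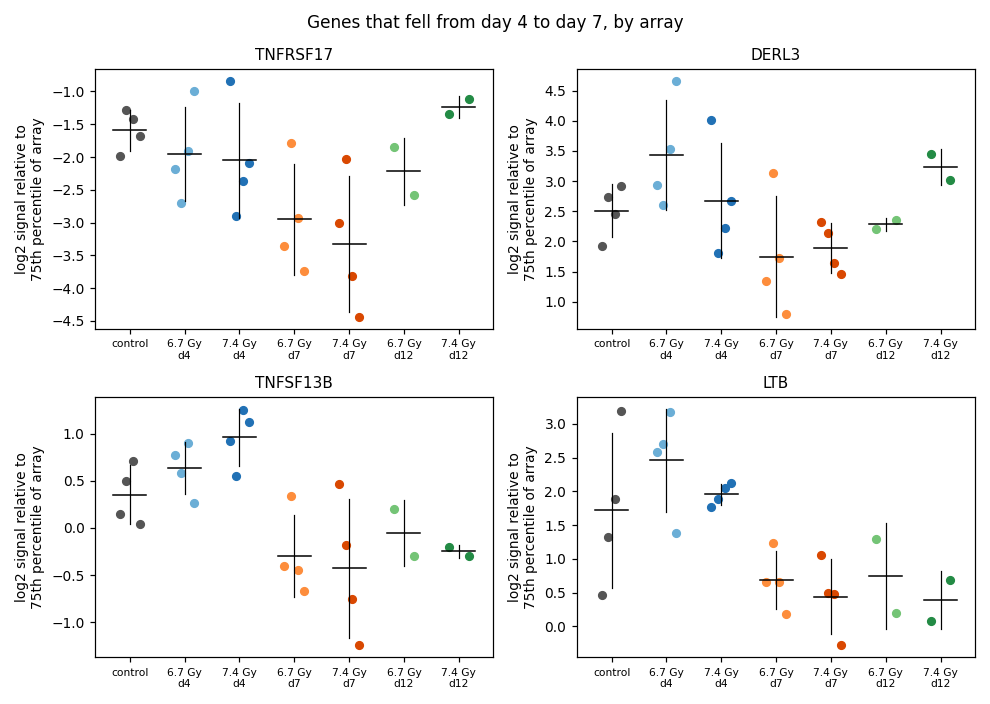
Points are arrays, filled where the probe was well above background and open where it was not, with the group mean and 1 SD; the axes give the log2 signal relative to the 75th percentile of the array against dose and day (d). TNFRSF17 means fall from -1.95 and -2.05 on day 4 to -2.95 and -3.32 on day 7, LTB means from 2.46 and 1.96 to 0.69 and 0.44, and LTB stays low on day 12 (0.75 and 0.39) while DERL3 is at 2.28 and 3.23.

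Between day 4 and day 12, 4 of 30 genes were called, 3 higher and 1 lower, beside 6.51% of all probes (3.83% higher and 2.68% lower). CD24 rose by 1.72 (SE 0.35, adjusted p = 0.0018), TNFRSF13C by 1.27 (SE 0.28, adjusted p = 0.00304) and BLNK by 1.25 (SE 0.35, adjusted p = 0.0147), and LTB fell by 1.64 (SE 0.40, adjusted p = 0.00577). The BLNK fit for 7.4 Gy on day 12 rests on 1 animal, since the other spot was an outlier. TNFRSF13C was -4.37 and -3.95 after 6.7 Gy and -3.69 and -4.65 after 7.4 Gy on day 12, all above the day 4 arrays, which ranged from -5.87 to -5.14, while 13.7% of all probes did not overlap between these days.

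Between day 7 and day 12 no gene was called, beside 0.118% of all probes (0.0811% higher and 0.0366% lower). In limma 14 of 30 had an unadjusted p under 0.05, and 5 of these also changed 2-fold, beside 598 of 38214 probes. Of the 30 genes 26 had a change above 0, while 43.2% of all probes were lower and their median was 0.04. The plasma cell genes were all above 0 in this comparison, with a median of 0.76, led by TNFRSF17 at 1.41 (SE 0.44, adjusted p = 0.25) and MZB1 at 1.27 (SE 0.41, adjusted p = 0.269).

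The doses were compared within each day. Comparing 7.4 with 6.7 Gy, no gene was called on day 4, 7 or 12, where 0% of all probes were called, and 0 of 30 had an unadjusted p under 0.05 in limma on any of these days, nor did the methods' t-test call any. Whether the dose effect itself shifted from day 4 to day 7 was also tested, and no gene was called, beside 0.00262% of all probes, and again 0 of 30 had an unadjusted p under 0.05. Over the 30 genes the dose difference ranged from -0.80 to 0.38 on day 4, from -0.80 to 0.34 on day 7 and from -1.52 to 0.98 on day 12. On day 12, with 2 animals per dose, the doses did not overlap for 17 of 30 genes, beside 33.7% of all probes.

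Other parts of the pathway were read from lists of related genes. Of 13 tested genes that act with the B cell receptor, such as the kinases and adaptors below it, none was called against control in any group, with 4, 3, 4, 5, 2 and 3 at an unadjusted p under 0.05 in limma in the order of 6.7 and 7.4 Gy on days 4, 7 and 12. Of 12 tested genes of the secretory machinery, none was called, with 7, 4, 1, 1, 1 and 1 at an unadjusted p under 0.05, and the list had a median of 0.43 and 0.22 on day 4.

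Of 7 tested germinal centre genes only RGS13, a regulator of G protein signalling in germinal centre B cells, was called lower. Tuft and mast cells also make it. The list did not move with it on day 4, with a median of 0.08 and -0.07 after 6.7 and 7.4 Gy. At each dose 1 of 7 genes had an unadjusted p under 0.05 in limma on that day. The list median on day 7 was -0.33 and -0.43. RGS13 measured -1.72, -3.88, -1.60 and -0.36 in the controls. On day 4 it was -4.82, -4.23, -3.52 and -6.42 after 6.7 Gy and -5.02, -6.22, -5.72 and -5.12 after 7.4 Gy. On day 7 it was -4.19, -5.70, -3.54 and -6.16 after 6.7 Gy and -6.98, -6.84, -3.79 and -7.44 after 7.4 Gy. Every array of 7.4 Gy on day 4 lay below all controls (23.5% of all probes did not overlap). Control replicate 2 was overlapped by 1 array of 6.7 Gy on day 4 and 1 array of each dose on day 7. The change of RGS13 was -2.86 (SE 0.82, adjusted p = 0.0338) and -3.63 (SE 0.82, adjusted p = 0.00464) on day 4, and -3.01 (adjusted p = 0.129) and -4.37 (SE 0.82, adjusted p = 0.0196) after 6.7 and 7.4 Gy on day 7. The RGS13 probe was well above background on all 4 controls, on 2 of 4 arrays of each day 4 group and on 3 of 4 and 1 of 4 arrays of day 7 after 6.7 and 7.4 Gy, so these sizes rest partly on arrays near the detection limit. On day 12 it was -0.62 and -1.94 after 6.7 Gy and -3.30 and -4.16 after 7.4 Gy.

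Other leukocyte genes moved with the day 7 values. Of 7 tested genes common to leukocytes, PTPRC (CD45) and CORO1A, an actin-binding protein, were called lower on day 7 at both doses, and the list median was -1.04 and -1.06. Its summed level ranged from 14.1 to 27.7 in the controls and from 7.64 to 14.8 on day 7 over both doses. The 9 tested T cell genes had a median of -1.31 and -1.04 on day 7. Among them, CD5 and CD28 were well above background on 2 and 3 of 24 arrays. The 7 tested myeloid genes had a median of 0.72 and 0.89 on day 4, with 1 and 2 called higher, and 0.23 and 0.21 on day 7, with none called. Their part in the B cell and plasma cell values was not tested.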

How the data were processed

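Per the file headers, the authors extracted spots with Feature Extraction 11.0.1.1, which subtracted background and detrended each array, on a probe layout of rheMac2. The deposited scanner files give the processed signal as intensity, not normalized between arrays. A second, deposited table holds log2 values that GeneSpring scaled to the 75th percentile; it served as an alternative. The study's methods name a t-test with Benjamini-Hochberg adjustment. Controls left out, outlier spots were set to missing, spots of a probe were averaged, and log2 intensity minus the 75th percentile of the array was used. A probe entered if well above background on at least 2 of 24 arrays (38234 probes). Symbols came from the deposited tables, and 7 members, listed under LOC numbers, were named through the RefSeq gene table. Group means and 13 contrasts were estimated over every array with limma 3.58.1 (R 4.3.3), a step tested on simulated data. Calls needed an adjusted p under 0.05 and a 2-fold change.

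The members and gene lists were chosen with earlier results of these data known. Values of every array are given for members called against control and for MS4A1, CD79A, IGJ, MZB1 and SDC1 (PAX5 was not matched). TNFRSF17, DERL3, LTB, TNFSF13B, BLNK, POU2F2, PRDM1 and RGS13 were detailed after their values were seen. Replicates are separate animals. For the last day, the sample labels were followed where the protocol text differed. The number of arrays limits precision. Results for some context genes are not reported here. Alternatives covered background, scaling, filters, tests, blocks for slide, position, scan day and replicate number, and leaving out each array.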

Additional observations from a re-analysis of the deposited data

Results flagged for a closer look

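In 7 of 150 groups of 4 arrays, 1 array stood apart from the other three by Dixon's test, and chance alone marks about 1 in 20 such groups. The arrays were CD37 at -0.18 in 6.7 Gy day 4 replicate 2, BLNK at -0.46 in control replicate 4, BANK1 at -2.42 in 6.7 Gy day 4 replicate 4 and at -3.65 in 7.4 Gy day 7 replicate 2, POU2F2 at 1.22 in 6.7 Gy day 4 replicate 2, VPREB3 at -4.91 in 6.7 Gy day 7 replicate 3 and MZB1 at 1.98 in 7.4 Gy day 7 replicate 2, all log2 signals relative to the 75th percentile.

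The irradiated groups differed between days in a direct test for the following genes. From day 4 to day 7, over both doses, the log2 change was 1.76 for CD24, 1.02 for BLNK, -1.14 for TNFRSF17, -1.23 for DERL3, -1.16 for TNFSF13B and -1.64 for LTB. From day 4 to day 12 it was 1.72 for CD24, 1.25 for BLNK, 1.27 for TNFRSF13C and -1.64 for LTB.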

How the results depend on the processing

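Of the single-gene values, 312 kept their call under the alternatives, 43 lost it and none changed direction. Of counts and medians, 511 stayed close and 55 moved. The number of genes called on day 4 after 6.7 Gy (1) was 0 with the groups compared alone, with the methods' t-test, with the mean over the probes of a gene and with slide as a block, and 3 without a fold limit. After 7.4 Gy (2) it was 4 with normexp, 1 with the groups compared alone, 0 with the methods' t-test, 7 without a fold limit and 5 with scan day as a block. From day 4 to day 7 (6) it was 12 without a fold limit, from day 4 to day 12 (4) it was 2 with normexp and 8 without a fold limit, and from day 7 to day 12 (0) it was 1, TNFRSF13C, with spike-in scaling.

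The B cell median was -0.93 and the plasma cell median -1.09 on day 4 after 7.4 Gy with array position as a block. On day 7 the B cell median after 6.7 and 7.4 Gy was -1.18 and -1.18 over lineage-restricted genes and -0.58 and -0.52 with normexp. On day 12 after 6.7 Gy the plasma cell median was -0.43 over lineage-restricted genes, -0.038 with normexp, 0.19 with spike-in scaling, 0.079 with slide and -0.012 with scan day as a block, and the B cell median was 0.090 with spike-in scaling. On day 12 after 7.4 Gy the B cell median was -0.58 over lineage-restricted genes, 0.18 with normexp and -0.076 with spike-in scaling. The direction on day 12 therefore depended on the scaling. Spike-in scaling moved the median of all probes by 0.09 to 0.35 and normexp moved it by 0.31 after 7.4 Gy on day 12. The cause of these shifts was not tested.

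Leaving out 1 array at a time gave 0 to 2 calls after 6.7 Gy and 1 to 4 after 7.4 Gy on day 4, and 0 to 2 and 0 to 4 on day 7, where the highest counts came without control replicate 1. The B cell median ranged from -1.01 to -0.60 and from -1.11 to -0.64 on day 7, from -0.38 to 0.053 after 6.7 Gy on day 12, turning sign without control replicate 4, and from -0.42 to -0.068 after 7.4 Gy. The plasma cell median after 6.7 Gy on day 12 ranged from -0.39 to 0.090, turning sign without control replicate 2.

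Same-numbered samples showed no strong joint deviation: the correlation of an array's deviations with those of the same-numbered control ranged from -0.12 to 0.15 over the 20 irradiated arrays and was over 0.1 for 2 of them, both of 6.7 Gy on day 7. The arrays of that group, at 0.05 to 0.15, lay on the slides of the same-numbered controls. Number and slide cannot be told apart there. With replicate number as a block, the count on day 7 after 7.4 Gy was 1 (FCRLA) in place of 0, and no other count moved by over 1.5 times. The 4 control arrays and the 2 animals per group on day 12 limit precision, and dim probes such as MS4A1 lie near the detection limit.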

Other observations

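Immunoglobulin chains had no symbol on the array, and probes were picked by their description after the names were seen. Of 85 such probes 79 were tested, and none was called in any of the 6 groups against control in limma, with 7, 5, 1, 7, 4 and 6 at an unadjusted p under 0.05 in the order of 6.7 and 7.4 Gy on days 4, 7 and 12. Their median log2 change was 0.58 and 0.35 on day 4 after 6.7 and 7.4 Gy, -0.20 and -0.51 on day 7, and 0.28 and 0.45 on day 12. On day 7, 52 and 64 of the 79 were lower than the controls. From day 4 to day 7, over both doses, 17 of the 79 were called lower and none higher, with a median of -0.84, beside 2.06% of all probes called lower. These probes share near-identical sequences of a multigene family, so single probes may measure several genes and the values are uncertain.

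Among 17 tested genes of lymphocyte homing and help, CCL19, a chemokine that draws naive lymphocytes and dendritic cells, was called higher on day 4. Its log2 signal was -2.24, 0.22, 0.06 and 1.09 in the controls, 1.93, 1.80, 3.05 and 0.92 after 6.7 Gy, and 1.63, 1.94, 3.00 and 2.57 after 7.4 Gy. All arrays of 7.4 Gy lay above all controls (23.5% of all probes did not overlap), and 1 array of 6.7 Gy overlapped them. The change was 2.14 (SE 0.60, adjusted p = 0.0289 in limma) and 2.51 (SE 0.60, adjusted p = 0.00647). ITGA4, an integrin chain for entry into the gut, was called lower after 7.4 Gy on day 7, at -1.30 (SE 0.29, adjusted p = 0.0482). GZMK, a granzyme of cytotoxic lymphocytes, was called lower after 6.7 Gy on day 7, at -2.71 (SE 0.58, adjusted p = 0.0465).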
